A study of Mus musculus with 6 samples.

Results

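The genes described here are 37 mouse genes of the interferon response and of class I antigen presentation, taken by symbol from a list and not by their values. All 37 had a row among the 17193 genes of the tables, and 34 of them reached the mean level of 1 FPKM required for testing, as did 12255 genes in all. FPKM counts the fragments of a gene per kilobase of transcript and scales them by the depth of the library, so levels of different genes can be set side by side. The RNA came from brain cells of wild type C57BL/6 mice aged 3 months, pulled out with microbeads against ACSA-2, an astrocyte surface antigen encoded by Atp1b2. Control mice, called Mock in the labels and saline in the study's gene table, were compared with mice given quinpirole, an agonist of the dopamine receptor DRD2, with 3 libraries per group. The study sequenced these cells to look for genes that act downstream of DRD2 in glutathione production. The dose and duration for the sequenced mice, their sex, and whether animals were pooled are not stated in the sources used here. The p-values below therefore set the difference between groups against the spread between libraries of a group, part of which may be technical.

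Interferons are secreted when a cell senses viral nucleic acid. Type I interferon binds a receptor whose kinases activate STAT2, which in a complex with IRF9 binds interferon-stimulated response elements in front of antiviral genes. Interferon gamma acts on gamma-activated sequences and induces, among other genes, those of class I antigen presentation, in which peptides are pumped into the endoplasmic reticulum and loaded on heavy chains paired with beta-2 microglobulin. Astrocytes respond to both kinds of interferon, as do microglia, which express many of the same genes.

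Several of these genes carry the response elements of the pathway close to their start sites, and the stretches below are shown as examples of these elements, chosen for the letters they hold and not for how the genes moved. Each is the 200 bases before a RefSeq start site on GRCm38.p6, written in the direction of transcription, and the capitals mark the core of the interferon-stimulated response element. The core searched for is GAAA, any 2 bases and GAAA again, and on the other strand it reads TTTC, any 2 bases and TTTC. In the Irf1 stretch the capitals mark a gamma-activated sequence, TTCNNNGAA.
Ifit3, chr19:34583329-34583528, plus strand: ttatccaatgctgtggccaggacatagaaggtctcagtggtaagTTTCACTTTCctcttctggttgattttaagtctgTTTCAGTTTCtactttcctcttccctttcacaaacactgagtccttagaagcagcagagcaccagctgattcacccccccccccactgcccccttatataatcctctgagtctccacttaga
Ifit1, chr19:34640689-34640888, plus strand: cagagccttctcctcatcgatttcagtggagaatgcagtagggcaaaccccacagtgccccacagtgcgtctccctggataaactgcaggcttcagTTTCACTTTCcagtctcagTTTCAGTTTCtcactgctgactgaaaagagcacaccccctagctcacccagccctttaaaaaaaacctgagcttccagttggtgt
Isg15, chr4:156200819-156201018, minus strand: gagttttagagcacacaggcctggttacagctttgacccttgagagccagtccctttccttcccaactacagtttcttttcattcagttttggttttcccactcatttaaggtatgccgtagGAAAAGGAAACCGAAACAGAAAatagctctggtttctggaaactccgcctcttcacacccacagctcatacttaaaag
Irgm1, chr11:48871421-48871620, minus strand: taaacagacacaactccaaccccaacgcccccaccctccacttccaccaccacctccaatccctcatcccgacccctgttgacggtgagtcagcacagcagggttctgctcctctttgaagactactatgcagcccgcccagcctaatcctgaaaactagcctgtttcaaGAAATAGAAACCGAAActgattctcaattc
B2m, chr2:122147487-122147686, plus strand: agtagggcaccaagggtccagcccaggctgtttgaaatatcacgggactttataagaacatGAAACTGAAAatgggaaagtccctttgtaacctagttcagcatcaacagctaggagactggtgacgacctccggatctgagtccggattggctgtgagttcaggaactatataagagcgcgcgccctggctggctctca
Irf1, chr11:53769814-53770013, plus strand: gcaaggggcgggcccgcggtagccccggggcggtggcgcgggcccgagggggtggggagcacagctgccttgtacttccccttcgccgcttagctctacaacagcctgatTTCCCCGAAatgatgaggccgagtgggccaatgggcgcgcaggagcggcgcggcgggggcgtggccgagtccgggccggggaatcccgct

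Ifit3 and Ifit1 each held 2 separate cores, at -156 to -147 and -122 to -113 and at -104 to -95 and -85 to -76 from the start. Isg15 held 3 overlapping cores between -78 and -57, Irgm1 2 overlapping ones between -30 and -15, and B2m 1 at -139 to -130. In windows from 250 bases before to 50 bases after the start, searched on both strands, 17 of the 29 members with a window (58.6%) held at least 1 core, against 3.99% of 27025 genes. The shorter gamma-activated sequence was found in 7 of the 29 (24.1%), against 9.55% of all genes. Windows of Irf7, Irf9, Oasl2, Xaf1, Lgals3bp, Tap1, Tapbp, H2-K1 and H2-D1 held neither set of letters. This says nothing about factors bound there or elsewhere.

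Every member was detected in every library, at levels from below 1 FPKM to those of abundant mRNAs. Mean FPKM over the 6 libraries was at least 100 for 7 members, between 10 and 100 for 10, between 5 and 10 for 6, and between 1 and 5 for 11. Ifitm3, a membrane protein that blocks virus entry, was the most abundant at 346 FPKM, followed by B2m at 311 FPKM and Ifitm2 at 250 FPKM. Sorted by level, 26 of the 36 pairs of neighbouring members overlapped in their libraries, so the order is only coarse. The 3 members below 1 FPKM were Rsad2, the antiviral enzyme viperin, at 0.585 to 0.798 FPKM, Iigp1, an interferon-inducible GTPase, at 0.198 to 0.409 FPKM, and Mx1, an antiviral GTPase, at 0.0401 to 0.155 FPKM. For Mx1 this corresponds to an estimated 3 to 15 fragments per library, and no difference was tested for these 3 genes.

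**Figure D1:**
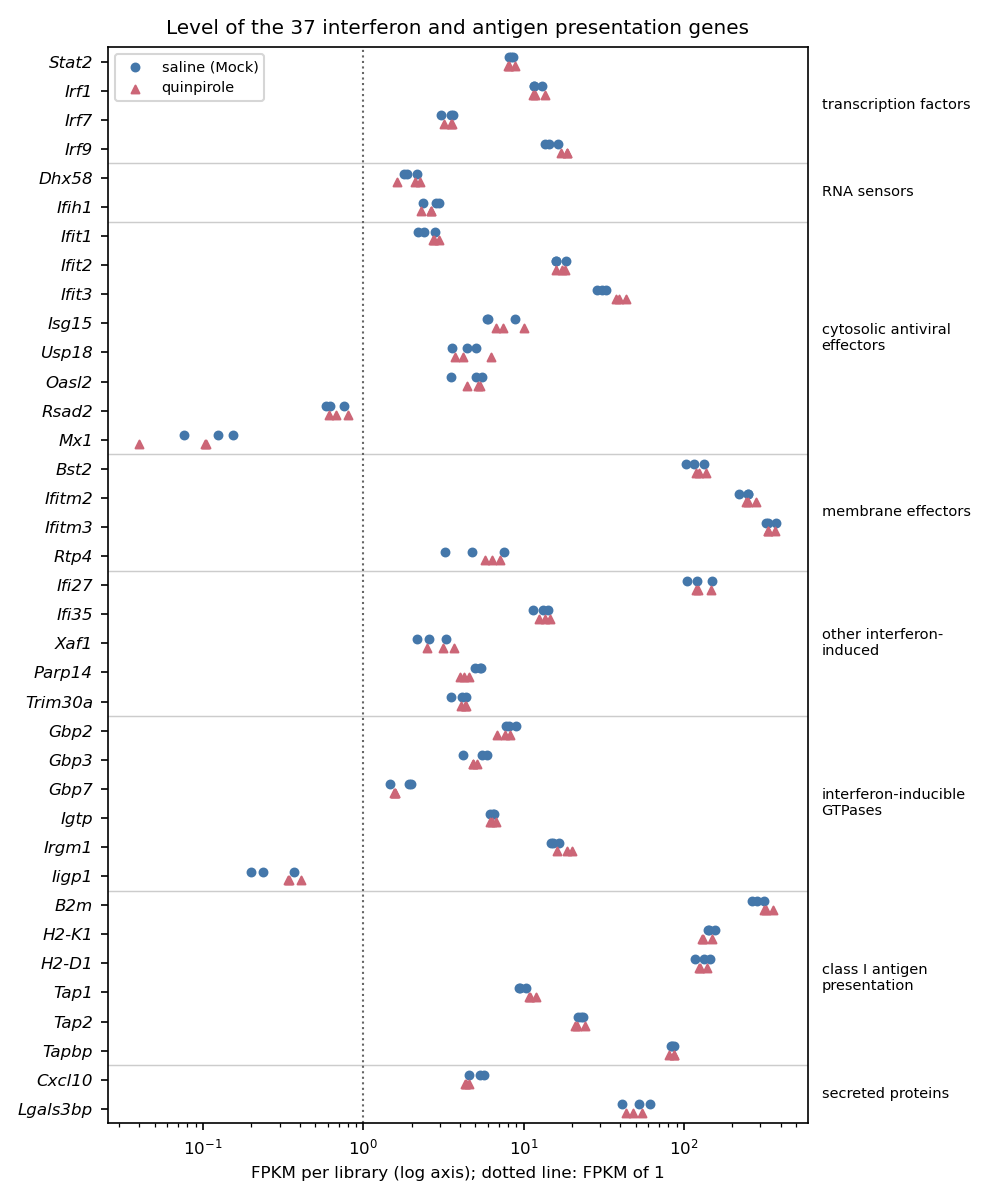
FPKM of the 37 genes in each of the 3 saline libraries (circles) and 3 quinpirole libraries (triangles), on a log axis, by role. Levels run from Mx1, below 0.2 FPKM, to Ifitm3, at 325 to 374 FPKM, and in most rows the circles and triangles overlap.

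After quinpirole, 1 of the 34 tested members passed the threshold (limma, adjusted p under 0.05 over all genes tested) and was higher, and 0 were lower. This is 2.94% of the members, against 10.9% of all genes tested, of which 5.74% were higher and 5.18% lower. An unadjusted p under 0.05 was reached by 7 members, against 31.3% of all genes, and the groups did not overlap in 6 members (17.6%), against 36.9% of all genes. The mean was higher after quinpirole in 23 members and lower in 11. The median difference in log2(FPKM + 1), quinpirole minus saline, was 0.03 over the members and 0.02 over all genes tested. For 23 of the 34 the difference was smaller than the spread between libraries of 1 group, taken as the SD on the log2 scale.

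Most members were measured closely enough to bound the difference. The 95% interval lay within a 1.5-fold change of FPKM + 1 in either direction for 32 of the 34 (94.1%, against 94.5% of all genes tested). For members at a few FPKM, the same interval allows a larger fold of FPKM itself. The exceptions on the scale of FPKM + 1 were Rtp4 and Isg15, whose libraries varied most. The median standard error was 0.0787 over the members and 0.0657 over all genes on the log2 scale.

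**Figure D2:**
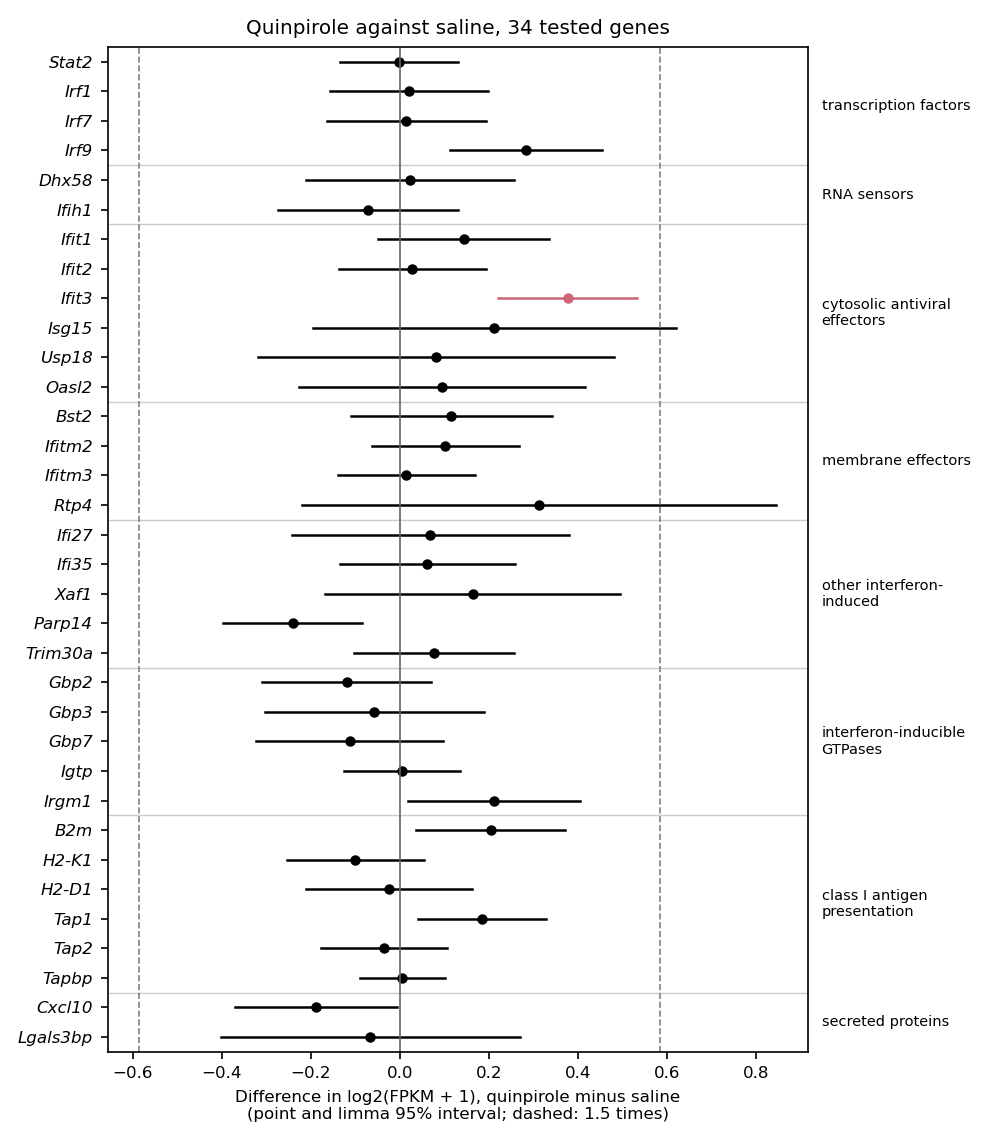
Difference in log2(FPKM + 1), quinpirole minus saline, for the 34 tested genes, with limma 95% intervals (3 libraries per group). Dashed lines mark a 1.5-fold change of FPKM + 1. The coloured point is Ifit3, at 0.38, the member past the threshold, and most intervals include 0.

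Ifit3, a cytosolic protein that stabilizes the binding of viral RNA by IFIT1, rose after quinpirole. Its gene lies at chr19:34583531-34588731. Ifit3 was at 28.7, 30.9 and 32.5 FPKM in the saline libraries and at 37.8, 43.6 and 39.1 FPKM in the quinpirole libraries. Every quinpirole library was above every saline library. The means were 30.7 ± 1.93 and 40.2 ± 3.03 FPKM (SD, n = 3 each), which is 30.9% higher, with a log2 difference of 0.38 (standard error 0.0669, 95% interval 0.22 to 0.53, limma adjusted p = 0.0251).

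The call for Ifit3 was close to the threshold and rested on the full set of libraries. Its adjusted p was 0.0760 without saline library 1, 0.0957 without saline library 2, 0.0590 without quinpirole library 1, 0.0757 without quinpirole library 2 and 0.0543 without quinpirole library 3, all by limma. Without saline library 3 it was 0.0303. The log2 difference stayed between 0.32 and 0.42 in these fits, and was 0.25 (adjusted p = 0.0504) after correction for transcript length and GC content. Over all 16 alternatives its adjusted p ran from 0.0190 to 0.0957, and 9 of the 16 kept the call.

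Ifit3 has a near copy next to it in the genome, Ifit3b, which holds 51.2% of the 50-base words of the Ifit3 transcript. Fragments that hold only such words cannot be assigned to either gene, so the sum of both was examined as well. Paired reads can reach bases outside these words, so 51.2% is not the share of ambiguous fragments. The sum was 35.1, 38.5 and 40.9 FPKM in the saline libraries and 46.6, 53.6 and 47.5 FPKM in the quinpirole libraries. The groups again did not overlap, with means of 38.1 ± 2.91 and 49.3 ± 3.83 FPKM (SD, n = 3 each), a ratio of 1.29. The exact permutation test of the sum gave a two-sided p = 0.1, the smallest possible with 3 libraries against 3. Ifit3 made up 79.5% to 82.2% of the sum in every library.

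The other IFIT genes did not pass the test. Ifit1, which binds viral RNA lacking host cap methylation, was at 2.20, 2.37 and 2.81 FPKM in saline and 2.73, 2.76 and 2.95 FPKM in quinpirole libraries. The groups overlapped through saline library 3, and the log2 difference was 0.14 (standard error 0.0826, adjusted p = 0.277). Ifit2, which promotes apoptosis of infected cells, was at 15.9, 18.3 and 15.97 FPKM against 18.1, 15.9 and 17.2 FPKM, a complete overlap with a log2 difference of 0.03 (95% interval -0.14 to 0.19).

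Isg15, a ubiquitin-like modifier, was at 5.87, 5.96 and 8.81 FPKM in saline and 7.47, 10.1 and 6.77 FPKM in quinpirole libraries. Saline library 3 was above quinpirole libraries 1 and 3, and the log2 difference of 0.21 had a 95% interval from -0.19 to 0.62 (adjusted p = 0.440). Usp18, the protease that removes ISG15 and damps interferon receptor signalling, was at 3.55, 4.45 and 5.05 FPKM against 4.15, 6.25 and 3.75 FPKM. It was the tested member with the widest range among quinpirole libraries, 1.67 times from lowest to highest, and its log2 difference was 0.08 (adjusted p = 0.779). Oasl2, of the oligoadenylate synthetase family, was at 3.51, 5.01 and 5.47 FPKM against 4.45, 5.17 and 5.35 FPKM, with saline library 1 alone below the rest (log2 difference 0.10, adjusted p = 0.669).

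Among the transcription factors, Irf9, the DNA-binding subunit of the complex with STAT2, lay just outside the threshold. It was at 14.3, 16.3 and 13.6 FPKM in the saline libraries and 17.0, 18.5 and 18.7 FPKM in the quinpirole libraries. All quinpirole libraries were above all saline libraries. The means were 14.7 ± 1.41 and 18.1 ± 0.940 FPKM (SD, n = 3 each), a log2 difference of 0.28 (standard error 0.0731, 95% interval 0.11 to 0.45, limma adjusted p = 0.0501). Over the 16 alternatives its adjusted p ran from 0.0423 to 0.138, and it was below the threshold in 2 of them. Irf9 lies at chr14:55603571-55610030.

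The partners and relatives of Irf9 did not pass the test. Stat2 was at 8.06, 8.33 and 8.52 FPKM in saline and 8.83, 8.10 and 7.97 FPKM in quinpirole libraries. Its log2 difference was -0.0016 with a 95% interval from -0.13 to 0.13. Irf1, a factor induced by interferon gamma, was at 11.7, 11.6 and 13.1 FPKM against 11.8, 13.6 and 11.5 FPKM (log2 difference 0.02, adjusted p = 0.877), and Irf7, the factor that amplifies interferon production, ranged from 3.06 to 3.62 FPKM over both groups (log2 difference 0.01, adjusted p = 0.917). The RNA sensors were low and overlapped as well. Ifih1, which encodes MDA5, ranged from 2.30 to 2.95 FPKM (log2 difference -0.07, adjusted p = 0.609). Dhx58, which encodes LGP2, ranged from 1.63 to 2.26 FPKM (log2 difference 0.02, adjusted p = 0.894).

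In class I antigen presentation, B2m and Tap1 had groups that did not overlap and neither passed the threshold. B2m, the light chain shared by all class I molecules, was at 266, 287 and 314 FPKM in saline and 317, 358 and 323 FPKM in quinpirole libraries. The highest saline and the lowest quinpirole library were close, and the means were 289 ± 24.2 and 333 ± 22.3 FPKM (SD, n = 3 each). The log2 difference was 0.20 (standard error 0.0715, 95% interval 0.04 to 0.37, limma adjusted p = 0.102). B2m is short, and its log2 difference was 0.05 after correction for transcript length and -0.01 after correction for length and GC content.

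Tap1, a subunit of the peptide pump, was at 9.50, 9.40 and 10.3 FPKM in saline and 10.9, 10.7 and 11.98 FPKM in quinpirole libraries. Its groups were apart, with means of 9.74 ± 0.497 and 11.2 ± 0.672 FPKM (SD, n = 3 each) and a log2 difference of 0.18 (standard error 0.0612, adjusted p = 0.0894). Tap2, the other subunit, was at 23.5, 21.9 and 22.8 FPKM against 21.6, 24.1 and 20.8 FPKM. These overlapped, with a log2 difference of -0.04 (95% interval -0.18 to 0.11). Of the exonic bases of Tap2, 18.5% overlap other genes. The largest overlap is with a gene on the opposite strand, whose reads the library kit does not separate.

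The heavy chains had lower means after quinpirole, and neither passed the threshold. The SD within a group on the log2 scale was 0.0978 for H2-K1 and 0.124 for H2-D1. H2-K1 was at 141, 143 and 156 FPKM in saline and 129, 149 and 132 FPKM in quinpirole libraries, with a log2 difference of -0.10 (95% interval -0.25 to 0.05). H2-D1 was at 118, 133 and 145 FPKM against 123, 139 and 127 FPKM, with a log2 difference of -0.02 (95% interval -0.21 to 0.16). In both genes the groups overlapped, and 8.1% and 14.3% of their 50-base words occur in other class I genes or elsewhere among transcripts. Tapbp, which encodes the loading chaperone tapasin, was the most even member that was abundant, at 81.1 to 87.2 FPKM in all libraries (log2 difference 0.01, 95% interval -0.09 to 0.10). However, 29.0% of its exonic bases overlap other genes, the largest overlap being with a gene on the opposite strand.

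Parp14 and Cxcl10 were the members whose quinpirole libraries all lay below the saline libraries, and neither passed the threshold. Parp14, a mono-ADP-ribosyltransferase, was at 4.94, 5.39 and 5.37 FPKM in saline and 4.22, 4.03 and 4.59 FPKM in quinpirole libraries. All quinpirole libraries were below all saline libraries, and the log2 difference was -0.24 (standard error 0.0670, 95% interval -0.40 to -0.08, limma adjusted p = 0.0595). It stayed above the threshold in all 15 alternatives that gave a value, with adjusted p from 0.0543 to 0.191, and was -0.15 on the log2 scale after correction for transcript length.

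Cxcl10, the chemokine that draws CXCR3-bearing lymphocytes, was at 5.68, 5.31 and 4.59 FPKM in saline and 4.33, 4.56 and 4.37 FPKM in quinpirole libraries. Saline library 3 and quinpirole library 2 were nearly level, and the log2 difference was -0.19 (standard error 0.0774, adjusted p = 0.147). Lgals3bp, a secreted glycoprotein, was at 41.0, 61.4 and 52.8 FPKM against 54.9, 48.4 and 43.6 FPKM, a full overlap (log2 difference -0.07, 95% interval -0.40 to 0.27).

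**Figure D3:**
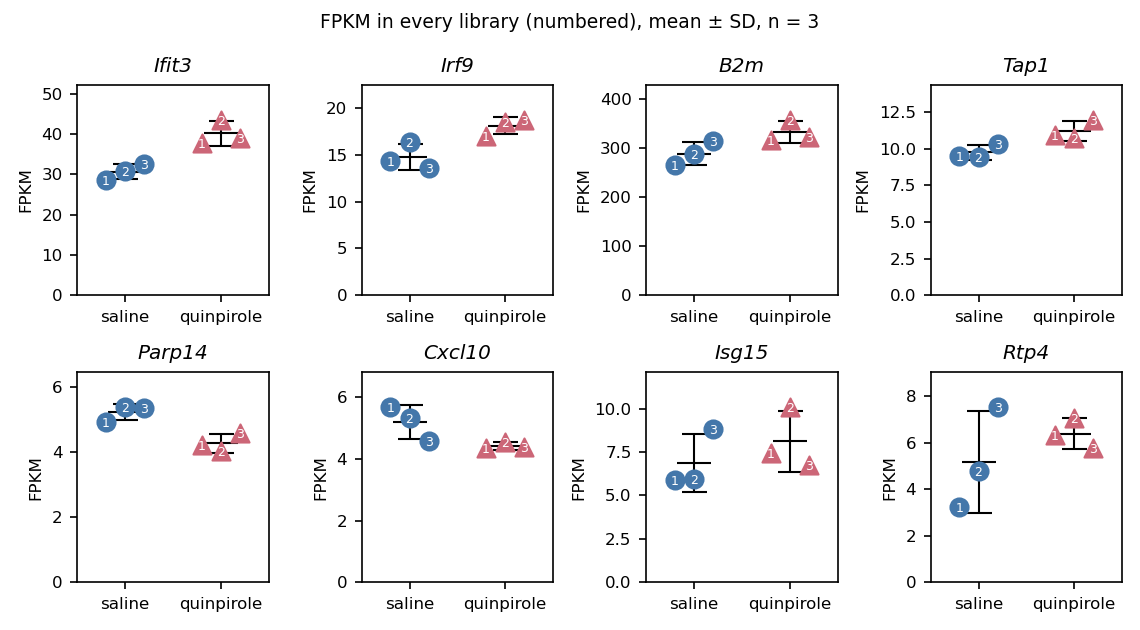
FPKM of 8 genes in each numbered library, with the mean and SD (n = 3) as horizontal marks and bars on axes that start at 0. Groups are apart for Ifit3, Irf9, B2m, Tap1, Parp14 and Cxcl10, and overlap for Isg15 and Rtp4.

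None of the membrane effectors passed the test. Bst2, the tetherin that holds budding virus at the cell surface, was at 102, 116 and 134 FPKM in saline and 119, 137 and 124 FPKM in quinpirole libraries (log2 difference 0.12, adjusted p = 0.447). Ifitm3 was at 325, 334 and 374 FPKM against 335, 372 and 336 FPKM, so that the groups spanned almost the same range (log2 difference 0.01, 95% interval -0.14 to 0.17). Ifitm2, its neighbour on chromosome 7, ranged from 221 to 282 FPKM (log2 difference 0.10, adjusted p = 0.362), and 48.5% of its 50-base words occur in other transcripts, so its value is uncertain.

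Rtp4, a chaperone of cell surface receptors that interferon induces, was at 3.23, 4.77 and 7.54 FPKM in the saline libraries and 6.31, 7.08 and 5.76 FPKM in the quinpirole libraries. The saline libraries alone differed 2.33 times, the widest range of any tested member, and enclosed all quinpirole libraries. Its log2 difference of 0.31 was not separable from this spread (standard error 0.227, 95% interval -0.22 to 0.84, adjusted p = 0.385). It was 0.069 without saline library 1 and 0.58 without saline library 3, the lowest and highest values with 1 library left out.

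None of the GTPases that attack the vacuoles of intracellular pathogens passed the test. Irgm1, a regulator of the other immunity-related GTPases, was at 14.9, 16.6 and 15.2 FPKM in saline and 16.1, 20.0 and 18.6 FPKM in quinpirole libraries. Quinpirole library 1 was below saline library 2, and the log2 difference was 0.21 (standard error 0.0824, adjusted p = 0.131). Igtp was at 6.16 to 6.69 FPKM in all libraries (log2 difference 0.01, adjusted p = 0.957). Among the guanylate-binding proteins, Gbp2 ranged from 6.78 to 8.94 FPKM (log2 difference -0.12), Gbp3 from 4.201 to 5.88 FPKM (-0.06) and Gbp7 from 1.47 to 1.99 FPKM (-0.11), with adjusted p of 0.351, 0.742 and 0.427.

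Of the other interferon-induced genes, Ifi27, a mitochondrial and nuclear envelope protein, was at 104, 120 and 148 FPKM in saline and 120, 148 and 122 FPKM in quinpirole libraries, nearly the same upper values in both groups (log2 difference 0.07, adjusted p = 0.755). Xaf1, which antagonizes the apoptosis inhibitor XIAP, ranged from 2.18 to 3.69 FPKM (log2 difference 0.16, adjusted p = 0.464). Ifi35 ranged from 11.5 to 14.6 FPKM (log2 difference 0.06) and Trim30a, a ubiquitin ligase family member, from 3.54 to 4.39 FPKM (log2 difference 0.08), with adjusted p of 0.653 and 0.533. Of the exonic bases of Ifi35, 16.8% overlap other genes, the largest overlap being with a gene on the opposite strand.

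The members varied together from library to library within each group, a pattern that was noticed after the values were seen and is given as a description. In the saline group, library 1 was the lowest for 26 of the 34 tested members (76.5%), while it was the lowest for 35.5% of all genes tested. Saline library 3 was the highest for 25 of the 34 (73.5%), against 37.3% of all genes. In the quinpirole group, library 1 was the lowest for 20 members (58.8%, against 31.5%) and library 2 the highest for 24 (70.6%, against 35.0%). The median deviation of the members from their 6-library mean, on the log2 scale, ran from -0.14 in saline library 1 over -0.0023 in library 2 to 0.09 in library 3, and from -0.05 in quinpirole library 1 over -0.01 in library 3 to 0.09 in library 2. Over all genes tested these medians lay between -0.01 and 0.01. The FPKM of all genes summed to 401769, 402354 and 413730 in saline and 426492, 437164 and 425244 in quinpirole libraries. The main fit did not rescale the libraries, and the part of these sums in the pattern was not tested.

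The spread of the members within a group was wider than their median difference between the groups. Within saline, 4 of the 34 tested members (Rtp4, Oasl2, Xaf1 and Isg15) differed over 1.5 times between the lowest and highest library, and within quinpirole 1 did (Usp18). The counts were nearly the same after correction for transcript length, where saline library 1 was the lowest for 25, saline library 3 the highest for 25, quinpirole library 1 the lowest for 20 and quinpirole library 2 the highest for 23 members. Of the 16 tested members with a response element core in their window, saline library 1 was the lowest for 15, and of the 12 tested members whose window held none, for 6. Saline library 3 was the highest for 12 of the 16 and for 9 of the 12, the same share. Whether the library pattern depends on the core was not tested. The median log2 difference after quinpirole was 0.05 with the core and 0.02 without it.

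**Figure D4:**
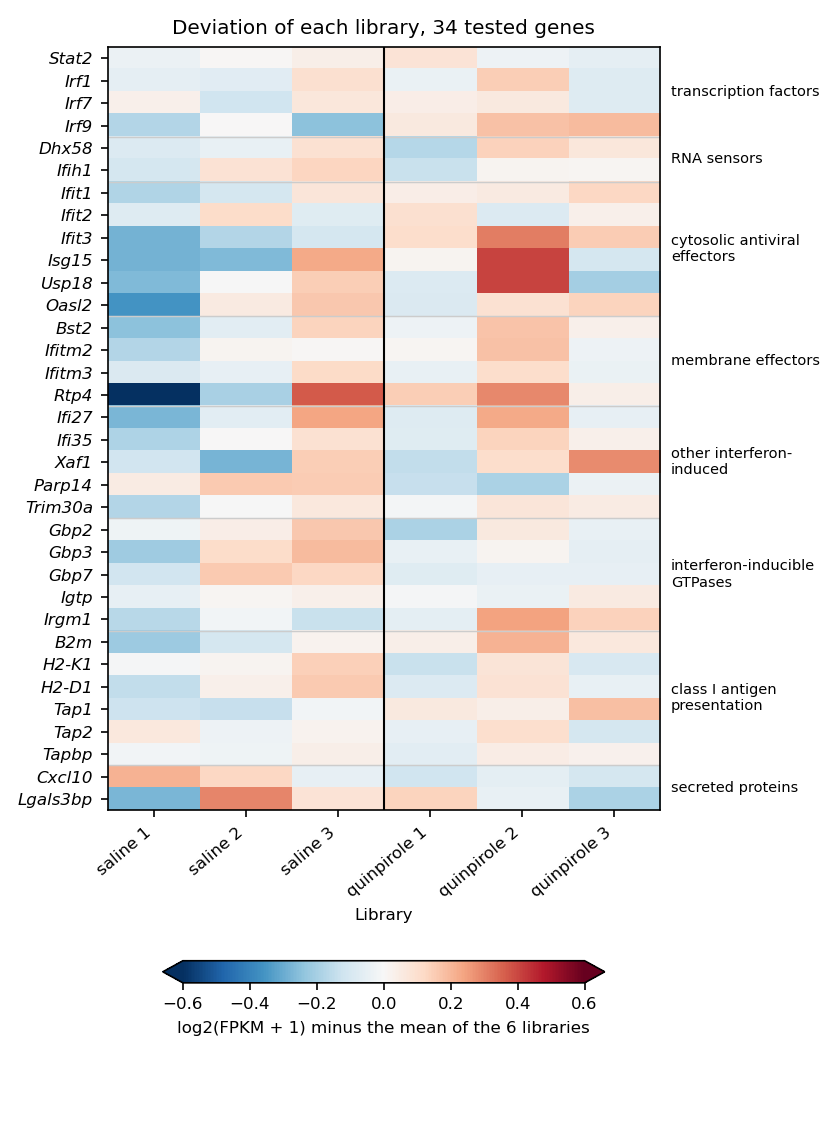
Deviation of log2(FPKM + 1) in each library from the mean of the 6 libraries, for the 34 tested genes by role, blue below and red above the mean. Blue prevails in saline library 1 and red in saline library 3 and quinpirole library 2.

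Astrocyte markers were abundant for the most part, with genes of other cells beside them. Of 10 astrocyte markers, Aldh1l1 was at 165 to 182 FPKM and Gfap at 482 to 560 FPKM in all libraries, while Slc1a2, the main glutamate transporter, was low at 5.15 to 8.55 FPKM and Gjb6, a gap junction gene, nearly absent at 0.0562 to 0.281 FPKM. Atp1b2 and Slc1a2 were lower after quinpirole (adjusted p = 0.0382 and 0.0297). Microglial genes were abundant, with C1qa at 198 to 252 FPKM, although Siglech was at or near 0. The 14 microglia markers summed to 1002, 1034 and 1091 FPKM in saline and 1073, 1185 and 1116 FPKM in quinpirole libraries. The lowest and highest libraries of each group were the same ones as for most members. By gene, saline library 2 was the highest for 7 of the 13 tested microglia markers and saline library 3 for 6. Over all genes tested, they were the highest for 30.2% and 37.3%. Ependymal markers summed to 138.2, 144.5 and 151.5 FPKM in saline and 139.4, 146.9 and 143.6 FPKM in quinpirole libraries. Their lowest and highest libraries were the same too. Astrocyte, mural, oligodendrocyte and endothelial sums also rose from saline library 1 to 3, but had a different lowest quinpirole library. Border macrophage and monocyte markers summed to 13.1 to 15.4 FPKM in saline and 15.7 to 19.1 FPKM in quinpirole libraries. Most of this sum was Ms4a7, at a mean of 13.9 FPKM over all libraries, whose groups overlapped (limma adjusted p = 0.178). Pf4 was higher after quinpirole (limma adjusted p = 0.0258), at an estimated 17 to 48 fragments per library. Of the other markers in this sum, Mrc1 was the highest, at 0.180 to 0.389 FPKM. The lymphocyte markers summed to at most 0.177 FPKM. Of 6 markers of contractile (mural) cells, Acta2 and Tagln were at 2228 to 2881 FPKM and Pdgfrb at 20.7 to 27.2 FPKM. The others were low in all libraries, Myh11 at 0.525 to 0.810 FPKM, Rgs5 at 0.179 to 0.420 FPKM and Kcnj8 at 0.0207 to 0.149 FPKM. In bulk RNA, a change in the number of cells of a type and a change in RNA per cell cannot be told apart, and the part of microglia in the values of the interferon and class I genes was not tested.

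A wider list of 104 genes of the same pathways, from ligands and receptors to class II presentation, gave a like picture. Of these, 72 were tested, 1 was higher and 0 were lower, against 10.9% of all genes called. An unadjusted p under 0.05 was reached by 11 of the 72, against 31.3% of all genes, and the groups did not overlap in 12, against 36.9%. The median log2 difference of the list was 0.04. The gene past the threshold was Pdia3, a disulfide isomerase of the class I loading complex that also folds glycoproteins in general. It was at 159, 167 and 167 FPKM in saline and 181, 182 and 185 FPKM in quinpirole libraries, without overlap and with a log2 difference of 0.16 (standard error 0.0343, limma adjusted p = 0.0376).

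The genes of this list named next fall outside the rule for naming and were chosen after their values were seen. Of the 5 interferon ligands listed, Ifnb1 alone had a row in the tables used here, at 0 to 0.152 FPKM. The type I receptor chains were expressed, Ifnar1 at 21.2 to 23.8 FPKM and Ifnar2 at 15.5 to 24.2 FPKM, and neither passed the test (adjusted p = 0.317 and 0.143). Socs1, the inhibitor of the receptor kinases, was at 1.66, 1.74 and 2.16 FPKM against 2.52, 2.53 and 2.61 FPKM, higher in all quinpirole libraries (log2 difference 0.32, adjusted p = 0.0509). Nlrc5, the transactivator of class I genes, was at 2.03, 1.69 and 1.68 FPKM against 1.17, 1.16 and 1.55 FPKM, lower in all of them (log2 difference -0.29, adjusted p = 0.0895).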

How the data were processed

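RNA of ACSA-2 selected brain cells was sequenced as paired-end poly-A libraries made with a kit that does not mark strand, 3 saline (Mock) and 3 quinpirole. Per the study's methods and processing notes, the authors mapped reads with TopHat2 to GRCm38 and deposited FPKM values, 1 table per library. The TopHat2 version and the program and annotation behind the FPKM values are not given in the sources used here. FPKM values are not counts. From the spacing of the lowest values, depth was put at 22100000 to 27400000 fragments per library, with 57.4% to 65.5% of the values used near whole fragments. Intervals and tests rest on the spread between libraries.

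Gene IDs were matched to symbols (17090 of 17193), with lengths, positions and transcripts from GENCODE M21 and promoters from RefSeq (GRCm38.p6). Values were tested as log2(FPKM + 1) for genes with a mean of at least 1 FPKM, by limma 3.58.1 in R 4.3.3 (eBayes with trend, two-sided, Benjamini-Hochberg over 12255 genes, threshold 0.05). The test was also run on simulated data, with changes larger than that of any member and genes that varied independently. That run does not show how well differences of the size seen here are called. A fold of FPKM + 1 understates changes of low genes. No count test was run. All members are named, and of the wider list those past the threshold, while others are said to be chosen later. The members and lists were chosen with earlier results of these data known. A few genes are not reported here.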

Additional observations from a re-analysis of the deposited data

How the results depend on the processing

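With 3 libraries per group and no counts, only differences that are large beside the spread between libraries could be called. Among all genes tested, 1339 passed in the main analysis (704 higher, 635 lower), 783 with quantile normalization (283 higher), 633 when low genes were kept, 714 without the variance trend (293 higher), 490 after correction for transcript length, 319 after correction for length and GC content, and 3 (without saline library 2) to 1215 (without saline library 3) when a library was left out, with 6 without saline library 1 and 11, 25 and 210 without quinpirole libraries 1, 2 and 3. The same replicate numbers did not pair the libraries (correlations of deviations 0.026, -0.066 and -0.103), and with the number as a replicate block 2 genes passed, 0 members and 0 genes of the wider list, with Ifit3 at 0.38 (adjusted p = 0.0802). The count of members higher was 2 with a minimum mean of 5 FPKM or with robust eBayes, Irf9 joining Ifit3 (adjusted p = 0.0432 and 0.0423), 0 after the length and GC correction, and 0 to 1 with a library left out. For the wider list it was 2 with a minimum mean of 5 FPKM or robust eBayes, 0 with no filter, quantile normalization, no trend, length correction or length and GC correction, and 0 to 3 with a library left out. The count lower was 0 throughout for both lists. The cause of these moves was not tested.

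Of 533 member values under alternatives, 457 kept their direction and side of the threshold, 7 lost the call (all Ifit3), 2 gained it (Irf9) and 67 changed sign, none of which was past the threshold. With quantile normalization the sign changed for Stat2 (0.023), Ifitm2 (-0.015), Ifitm3 (-0.11), Ifi27 (-0.018) and Tapbp (-0.066). With length correction it changed for Stat2 (0.023), Irf1 (-0.010), Irf7 (-0.023), Dhx58 (-0.031), Ifit2 (-0.0043), Bst2 (-0.039), Ifitm2 (-0.065), Ifitm3 (-0.15), Ifi27 (-0.058), Ifi35 (-0.052), Igtp (-0.095) and Tapbp (-0.037). With length and GC correction it changed for Stat2 (0.033), Dhx58 (-0.0089), Ifit2 (-0.052), Bst2 (-0.0086), Ifitm2 (-0.040), Ifitm3 (-0.14), Ifi27 (-0.045), Ifi35 (-0.028), Trim30a (-0.0059), Igtp (-0.097) and B2m (-0.0064), and with median ratio scaling for Igtp (-0.0060) and Tapbp (-0.0079). Members below a mean of 5 FPKM gave no value under that minimum. The median over the members was -0.027 with length correction and -0.0087 with length and GC correction.

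Leaving out a library in turn changed the sign of these log2 differences, given as lowest to highest: Stat2 -0.042 to 0.024, Irf1 -0.049 to 0.072, Irf7 -0.042 to 0.055, Dhx58 -0.040 to 0.11, Ifit2 -0.013 to 0.091, Usp18 -0.10 to 0.20, Oasl2 -0.061 to 0.20, Ifitm3 -0.035 to 0.075, Ifi27 -0.050 to 0.20, Ifi35 -0.015 to 0.12, Gbp3 -0.18 to 0.023, Igtp -0.020 to 0.027, H2-D1 -0.10 to 0.047, Tap2 -0.094 to 0.0078, Tapbp -0.015 to 0.038 and Lgals3bp -0.22 to 0.065.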
